A study of Mus musculus with 6 samples.

Results

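The genes that release, take up and buffer calcium in skeletal muscle were followed in the gastrocnemius, a calf muscle of mostly fast-twitch fibres, of tumour-bearing mice. They are 10 genes taken by name from the 55995 rows of the deposited gene table, namely Cacna1s, Ryr1, Jph1, Jph2, Casq1, Casq2, Atp2a1, Atp2a2, Sln and Pvalb, each with a single row. The 3 radiotherapy libraries came from NSG mice, an immunodeficient NOD/SCID strain without the IL-2 receptor gamma chain, whose left flank carried a subcutaneous xenograft of wild-type MDA-MB-231 human breast cancer cells mixed with Matrigel. When the xenograft had grown to about 800 mm3 it was irradiated locally, with 1 dose of 10 Gy (6 MV, 6 Gy per minute), and the gastrocnemius of the other side was collected 3 days afterwards. The 3 control libraries came from mice of the same strain with the same xenograft and no irradiation, and neither the tumour size nor the day of collection is stated for them, so these cannot be told apart from irradiation. The labels do not say whether each library is a separate mouse, so a p-value measures the spread between these libraries, which may be technical. Values are TPM, a transcript level scaled for transcript length that adds up to the same total in each library. The depth is unknown, and precision rests on 3 libraries per group.

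As background, an action potential in a muscle fibre moves a voltage sensor in the transverse tubule, the Cav1.1 channel encoded by Cacna1s. The sensor pulls open the calcium release channel of the sarcoplasmic reticulum, RyR1, at junctions that the junctophilins hold together. Calsequestrin stores calcium beside that channel, SERCA pumps return it to the store, and in fast fibres parvalbumin binds calcium in the cytosol and speeds relaxation. Fast fibres use Casq1, Atp2a1 and Pvalb, while slow fibres add or prefer Casq2 and Atp2a2.

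The tissue was fast skeletal muscle by its markers, with the fast myosin Myh4 at 4063 to 6545 TPM in the 6 libraries. This does not tell the gastrocnemius from other fast muscles. The heart also uses Casq2, Atp2a2, Sln and Jph2. Of 7 cardiac markers Myl7 and Nppb were at 0 in every library, Nppa and Tnni3 were under 1 TPM, Myh6 was at 0.18 to 3.04 TPM, Tnnt2 at 2.11 to 10.9 TPM and Myl4 at 9.83 to 16.7 TPM over the 6 libraries. The 7 summed to 14.96 to 27.5 TPM in radiotherapy and 13.4 to 20.4 TPM in control. Radiotherapy replicate 3 stood apart, with summed levels of 7 neutrophil markers of 2942 TPM in that library, 10.45 and 18.5 TPM in radiotherapy replicates 1 and 2, and 73.5 to 185 TPM in control. The sum of 10 fast fibre markers was 173331, 180569 and 91688 TPM in radiotherapy replicates 1, 2 and 3 and 111293 to 126948 TPM in control. Of the 9 smooth muscle and pericyte markers, Des, the desmin of muscle fibres, made most of the sum, at 1359, 1223 and 2902 TPM in the radiotherapy samples and 1771 to 2544 TPM in control. All 9 as listed summed to 1360 to 3037 TPM in radiotherapy and 1892 to 2662 TPM in control, with overlap. Leaving Des out was not part of the set list. The 8 others summed to 176, 137 and 135 TPM in the radiotherapy samples and 91.6, 118 and 121 TPM in control, without overlap. Of these Acta2 and Tagln were higher in every radiotherapy library, beside 1.73% of all tested features, and the rest overlapped. Log2 changes were -0.15 for Pdgfrb and -0.27 for Notch3. The 6 Schwann cell markers summed to 23.5 TPM in radiotherapy replicate 3, 143 and 186 TPM in replicates 1 and 2 and 21.9 to 132 TPM in control. Tendon markers, 6 in all, summed to 54.8, 41.4 and 8.80 TPM in the radiotherapy samples and 8.23 to 18.7 TPM in control. Here replicates 1 and 2 lay above every control and replicate 3 inside the control range. Macrophage markers, 8 in all, summed to 61.75, 101 and 371 TPM in the radiotherapy samples and 63.3 to 199 TPM in control. The 8 fibroblast markers summed to 196 to 260 TPM in radiotherapy and 299 to 459 TPM in control, also without overlap. Most of this was Ly6a, at 85.2 to 90.8 TPM in radiotherapy and 141 to 288 TPM in control, and Dcn. Dcn overlapped, at 76.3 to 102 TPM in radiotherapy and 97.4 to 155 TPM in control. Col1a1 and Col3a1 were higher and Ly6a lower in every radiotherapy library, beside 1.73% and 19.3% of all tested features. The 7 markers of satellite cells and regenerating fibres summed to 10.2, 7.30 and 3.72 TPM in radiotherapy and 40.6, 124 and 34.2 TPM in control, most of it Myod1 and Myog, muscle transcription factors. Myod1 was at 4.31, 2.03 and 0.71 TPM in radiotherapy and 17.5, 67.2 and 16.2 TPM in control, a log2 change of -3.21 (SE 0.64, adjusted p = 0.238 by limma). Myog was at 3.45, 3.54 and 2.05 TPM in radiotherapy and 21.1, 55.2 and 16.4 TPM in control, a log2 change of -2.82 (SE 0.47, adjusted p = 0.183 by limma). The part of these marker genes in the results that follow was not tested. Across 11938 features tested with limma, the median log2 change was -0.36, so a change near that value is shared with the bulk of features. For some genes the change is also given relative to that median.

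No gene of the set passed the test over all features. Casq1, Pvalb, Cacna1s and Jph2 lay above every control library in radiotherapy replicates 1 and 2, and inside or below the control range in replicate 3. Jph1 lay below every control library in all 3 radiotherapy libraries, while Atp2a1 and Ryr1 overlapped between the groups and varied less than 2-fold over the 6 libraries. At an adjusted p under 0.05, 0 of 10 were higher and 0 lower by limma, beside 0.0419% and 0.0168% of all features. At an unadjusted p under 0.05, 0 were higher and 1 lower, beside 1.18% and 13.3%. In every radiotherapy library 0 of 10 lay above every control library, beside 1.73% of all features, and 1, Jph1, lay below, beside 19.3%. The median log2 change of the 10 genes was -0.03. Without radiotherapy replicate 3, 3 genes passed as higher (Casq1, Pvalb and Cacna1s), beside 1.98% of all features, and 0 as lower, beside 27.6%. In that setting 4 of 10 lay above every control library, beside 6.17%, and 1 below, beside 58.8%, and the median of all features was -0.57. Each library was left out in turn, and replicate 3 is dwelt on because its values disagreed with those of replicates 1 and 2. No conclusion is therefore drawn from the p-values without it, here or for single genes below. With median-of-ratios scaling 0 passed as higher and 0 as lower, beside 0.0251% and 0.00838% of all features, and 0 were without overlap in either direction, beside 6.94% and 9.95%.

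**Figure D1:**
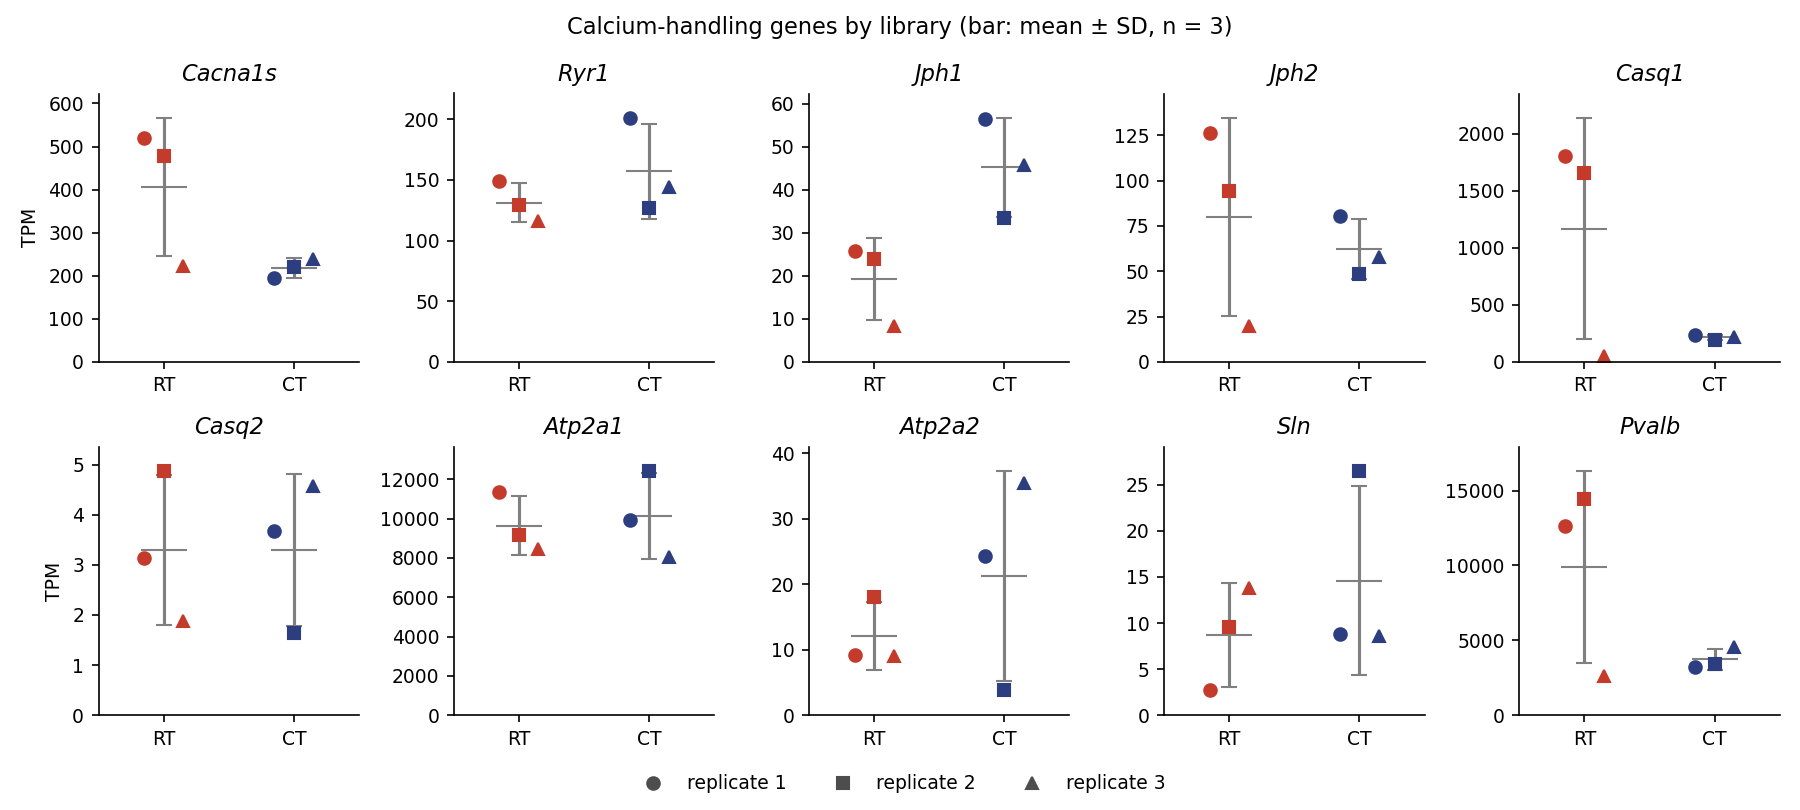
TPM of each of the 10 genes (y axis, from 0, its own scale per panel) in the radiotherapy (RT) and control (CT) libraries, with 1 symbol shape per replicate number and the mean ± SD of 3 libraries in grey. Casq1, Pvalb, Cacna1s and Jph2 show radiotherapy replicates 1 and 2 high and replicate 3 low, and Jph1 has all 3 radiotherapy points under the control points.

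The 4 genes that shared this pattern are shown with the 250 bases upstream of their RefSeq start, because they were the members above all controls in radiotherapy replicates 1 and 2. Entries were found for 7 of 10 genes, in build GRCm38.p6, and the first start listed is printed for Pvalb and Jph2. The bases after the Casq1 start were not found in a GENCODE M21 transcript, unlike those of the 6 other genes, so the place of its start, and with it of its motifs, is uncertain. Capitals mark matches, on either strand, to the E-box CANNTG, bound by myogenic factors such as MyoD, and to the MEF2 motif, bound by the MEF2 factors of muscle.
Casq1, chr1:172219896-172220145, minus strand: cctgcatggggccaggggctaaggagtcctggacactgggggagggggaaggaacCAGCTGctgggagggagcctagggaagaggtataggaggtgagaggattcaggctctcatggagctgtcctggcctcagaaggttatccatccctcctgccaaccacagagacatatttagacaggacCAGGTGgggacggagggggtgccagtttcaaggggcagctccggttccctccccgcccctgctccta
Pvalb, chr15:78206401-78206650, minus strand: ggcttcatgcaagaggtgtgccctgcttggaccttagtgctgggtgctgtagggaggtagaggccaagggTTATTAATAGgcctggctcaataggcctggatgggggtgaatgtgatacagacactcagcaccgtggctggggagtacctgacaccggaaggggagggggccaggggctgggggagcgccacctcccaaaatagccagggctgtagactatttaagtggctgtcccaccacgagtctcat
Cacna1s, chr1:136052561-136052810, plus strand: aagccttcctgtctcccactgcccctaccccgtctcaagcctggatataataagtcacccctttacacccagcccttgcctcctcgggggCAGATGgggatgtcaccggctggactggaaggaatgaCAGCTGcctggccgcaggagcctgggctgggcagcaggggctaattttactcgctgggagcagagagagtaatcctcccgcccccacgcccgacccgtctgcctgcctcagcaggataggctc
Jph2, chr2:163397994-163398243, minus strand: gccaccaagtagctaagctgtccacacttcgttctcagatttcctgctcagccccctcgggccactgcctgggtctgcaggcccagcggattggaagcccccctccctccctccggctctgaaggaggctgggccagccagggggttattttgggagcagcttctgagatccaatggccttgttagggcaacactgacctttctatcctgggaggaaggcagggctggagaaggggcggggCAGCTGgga
Casq1 and Cacna1s hold 2 E-boxes each, Jph2 holds 1 and Pvalb 0, while of the other 3 matched genes Casq2 holds 2, Atp2a1 holds 1 and Ryr1 0, and 66% of 27025 promoters of this length hold at least 1. The MEF2 motif was matched once in Pvalb and in 3.01% of promoters, and the Casq2 promoter, whose gene did not share the pattern, also holds 1 match. CATTCC, the MCAT element, was matched once, in Cacna1s, and in 12.6% of promoters. GGAAAA, the core bound by NFAT, was matched in 0 of the 7 and in 20.6% of all. No motif matched overlaps another in the 4 sequences printed. A match describes letters only.

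Cacna1s, the voltage sensor, stood at 519, 477 and 224 TPM in radiotherapy replicates 1, 2 and 3, against 194, 221 and 238 TPM in the control libraries. Replicates 1 and 2 were more than any control and replicate 3 fell inside the control range. Its log2 change was 0.81 (SE 0.37), or 1.17 relative to the median of all features, with an adjusted p of 0.364 by limma. Without radiotherapy replicate 3 the log2 change was 1.19 and the adjusted p 0.0133. Per 1000 TPM of fast fibre markers, Cacna1s stood at 3.00, 2.64 and 2.44 TPM in the radiotherapy libraries. In control it stood at 1.73, 1.74 and 2.14 TPM, with no overlap on that scale, which was chosen after the values were seen. On it 93 of 11938 features lay above every control library in all radiotherapy libraries. The log2 change of Cacna1s on that scale was 0.53 (SE 0.40, adjusted p = 0.561 by limma).

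Ryr1, the release channel that Cav1.1 opens, was at 149, 129 and 116 TPM in the radiotherapy samples and 201, 126 and 144 TPM in control. The groups overlapped, with a log2 change of -0.24 (SE 0.29, adjusted p = 0.68 by limma) that was 0.19 with median-of-ratios scaling. The ratio of the release channel to its sensor, Ryr1 to Cacna1s, was 0.286, 0.270 and 0.519 in the radiotherapy libraries and 1.03, 0.571 and 0.604 in control. All 3 radiotherapy ratios lay below every control ratio, and such a ratio within a library does not depend on scaling between libraries. The difference of the log2 ratio was -1.05, with an exact two-sided permutation p of 0.1, the smallest that 3 against 3 libraries can give, and 0.25 adjusted over 5 ratios.

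Jph1 and Jph2 encode junctophilins, which tie the transverse tubule to the sarcoplasmic reticulum, Jph1 being typical of skeletal muscle and Jph2 shared with the heart. Jph1 was at 25.7, 23.95 and 8.27 TPM in the radiotherapy samples and 56.5, 33.5 and 45.8 TPM in control. Every radiotherapy value was below every control value, and replicate 3 was the lowest of all. The log2 change was -1.30 (SE 0.47), or -0.94 relative to the median of all features, with an unadjusted p of 0.0266 and an adjusted p of 0.325 by limma. Without radiotherapy replicate 3 it was -0.81, or -0.24 relative to the median of all features (adjusted p = 0.0594). The groups overlapped with median-of-ratios scaling, where the log2 change was -0.88, and after rescaling without mitochondrial and the most abundant features, where it was -1.09.

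Jph2 was at 126, 94.2 and 19.8 TPM in the radiotherapy samples and 80.7, 48.7 and 57.8 TPM in control. Replicates 1 and 2 were above all controls and replicate 3 below all of them. The mean was 80.0 ± 54.5 TPM in the radiotherapy samples and 62.4 ± 16.5 TPM in control (SD, n = 3 each). The log2 change was 0.03 (SE 0.67, adjusted p = 0.988 by limma), and 0.83 without radiotherapy replicate 3 (adjusted p = 0.0668).

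The ratio of Jph1 to Jph2 was lower in each radiotherapy library, at 0.204, 0.254 and 0.417, against 0.700, 0.687 and 0.792 in control. Jph1 was thus the less abundant junctophilin transcript in all 6 libraries and most of all in radiotherapy replicate 1. The log2 ratio averaged -1.84 ± 0.53 in the radiotherapy and -0.46 ± 0.11 in the control libraries (SD, n = 3 each), a difference of -1.38. The exact permutation p was 0.1, again the smallest possible, and 0.25 adjusted over 5 ratios. Leaving out single libraries gave differences from -1.67 to -1.15.

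**Figure D2:**
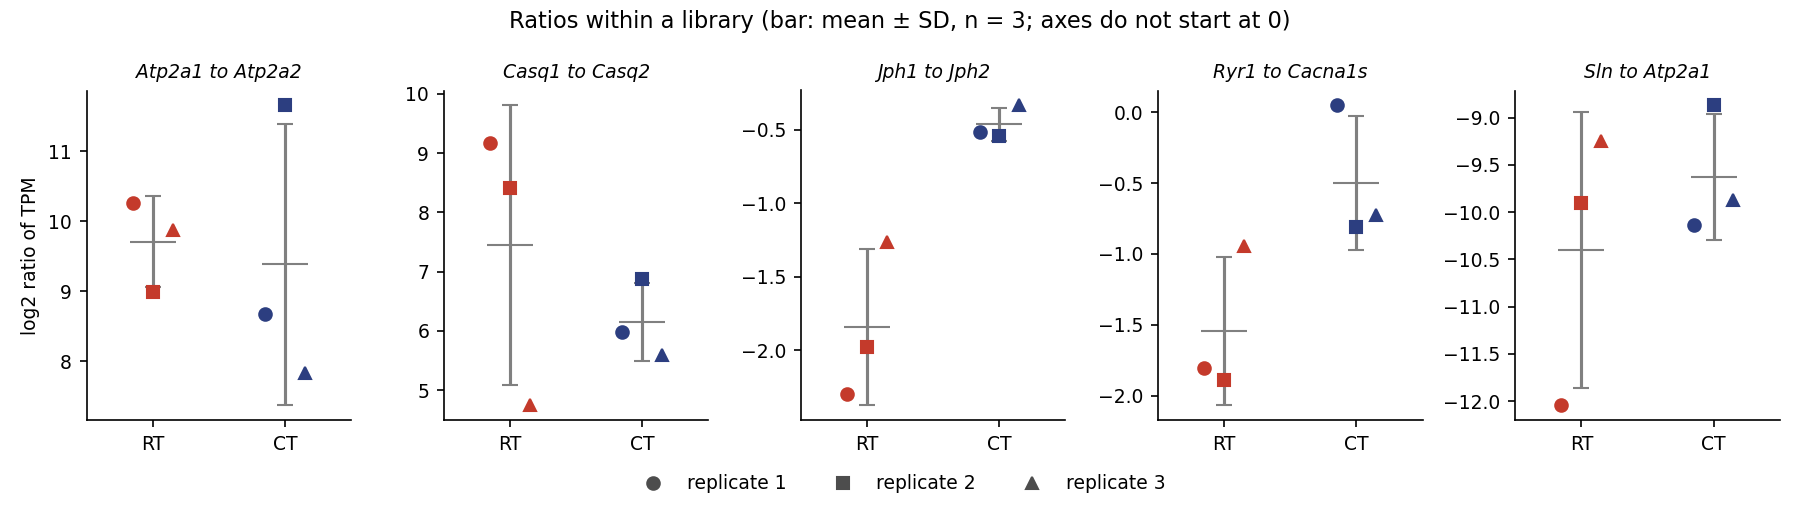
Log2 ratio of TPM between gene pairs within each library (y axis, its own scale per panel, not starting at 0), radiotherapy (RT) beside control (CT), with the mean ± SD of 3 libraries in grey. Jph1 to Jph2 and Ryr1 to Cacna1s show all 3 radiotherapy points under the control points, while the other 3 ratios overlap.

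Casq1, the calsequestrin of fast fibres and the main calcium store protein of their reticulum, showed the widest range of the 10 genes. It stood at 1802, 1653 and 50.6 TPM in radiotherapy replicates 1, 2 and 3, against 233, 190 and 221 TPM in control. Replicates 1 and 2 exceeded the highest control 7.72-fold and 7.08-fold, while replicate 3 was 3.76-fold below the lowest control. Within the radiotherapy group the highest value was 35.6 times the lowest, beside 1.23 times in control. The log2 change was 1.32 with an SE of 1.29, and the adjusted p was 0.607 by limma. Without radiotherapy replicate 3 the log2 change was 3.01 (SE 0.17, adjusted p = 0.00711), 0.44 without radiotherapy replicate 1 and 0.50 without radiotherapy replicate 2. Per 1000 TPM of fast fibre markers Casq1 was at 10.4, 9.16 and 0.552 TPM in the radiotherapy samples and 2.07, 1.50 and 1.98 TPM in control, so replicates 1 and 2 stayed above and replicate 3 below every control on that scale. In whole muscle, fewer fibres of a kind and less RNA per fibre cannot be told apart. An antisense gene, Gm17224, shares exon sequence with Casq1 and was at most at 2.37 TPM.

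Casq2, the slow-fibre and cardiac calsequestrin, was scarce, at 3.13, 4.87 and 1.88 TPM in the radiotherapy samples and 3.68, 1.63 and 4.58 TPM in control. The groups overlapped, with a log2 change of 0.01 (SE 0.40, adjusted p = 0.993 by limma). The ratio of Casq1 to Casq2 was 576, 339 and 26.9 in the radiotherapy libraries and 63.4, 117 and 48.2 in control. Radiotherapy replicate 3 was the lowest of all and replicates 1 and 2 the highest, with a difference of the log2 ratio of 1.29 and an exact permutation p of 0.4, or 0.625 adjusted over 5 ratios. That difference was 0.43 without radiotherapy replicate 1, 0.81 without replicate 2 and 2.64 without replicate 3.

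Atp2a1, SERCA1, the calcium pump of fast fibres, was among the most abundant transcripts of the muscle. It ranked from 14 to 22 among all features, at 11336, 9158 and 8445 TPM in the radiotherapy samples and 9904, 12412 and 8056 TPM in control. The groups overlapped fully, with a log2 change of -0.06 (SE 0.23, adjusted p = 0.905 by limma) that became 0.37 with median-of-ratios scaling. Rabep2 overlaps Atp2a1 on the opposite strand and was at 13.7 to 45.5 TPM, far below it.

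Atp2a2, SERCA2, the slow-fibre and cardiac pump, was at 9.26, 18.0 and 8.98 TPM in the radiotherapy samples and 24.3, 3.86 and 35.5 TPM in control. The controls spanned 9.19-fold and enclosed all radiotherapy values, and the log2 change was -0.40 (SE 0.75, adjusted p = 0.794 by limma). The low library was control replicate 2. Without it the log2 change was -1.28 (adjusted p = 0.346 by limma) and all radiotherapy values lay below the remaining controls. So did those of 3492 of 11938 features in that setting. That library was singled out for its low Atp2a2 value, so no conclusion is drawn from this separation. Slow fibre markers also varied between these libraries. Myh7, the slow myosin, was at 177, 362 and 32.6 TPM in the radiotherapy samples and 203, 8.61 and 251 TPM in control. The sum of the 9 slow fibre markers was 1531, 2427 and 490 TPM in the radiotherapy samples and 1570, 550 and 2040 TPM in control. Of these Actn2, also present in fast fibres, made 428, 282 and 213 TPM in the radiotherapy samples and 392, 462 and 441 TPM in control. By Casq2 and by Myh7 the 6 libraries stood in the same order, from radiotherapy replicate 2 at the top to control replicate 2 at the bottom. By Atp2a2 control replicate 2 was also the lowest, but control replicate 3 the highest. The part of slow fibre content in the Atp2a2 and Casq2 values was not tested.

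**Figure D3:**
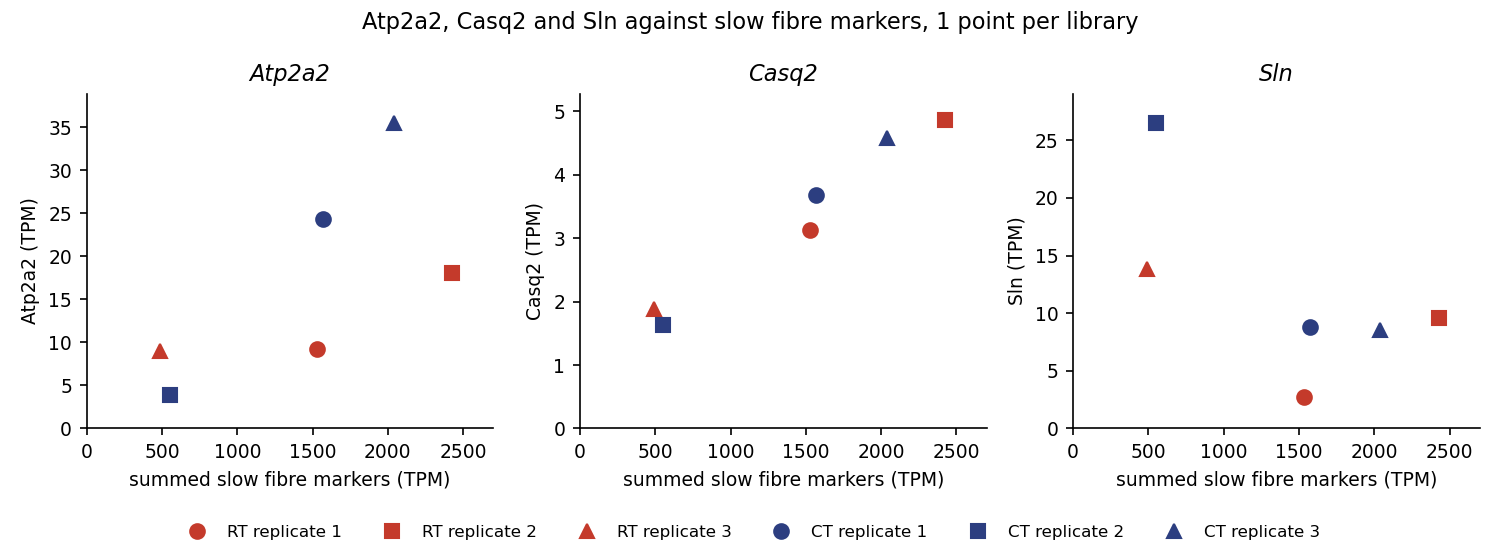
TPM of Atp2a2, Casq2 and Sln (y axes, from 0) against the summed TPM of 9 slow fibre markers (x axis), 1 point per library, radiotherapy (RT) in red and control (CT) in blue. Casq2 is lowest where the markers are lowest, at 1.88 TPM in radiotherapy replicate 3 and 1.63 TPM in control replicate 2, while Sln is highest in those libraries.

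Sln encodes sarcolipin, a small membrane peptide that binds SERCA and lowers the calcium moved per ATP. It was at 2.69, 9.57 and 13.8 TPM in the radiotherapy samples and 8.77, 26.5 and 8.57 TPM in control. The highest value of each group was in the library lowest in slow fibre markers, and the groups overlapped. The log2 change was -0.72 (SE 0.63, adjusted p = 0.567 by limma), -0.21 without control replicate 2, -0.13 without radiotherapy replicate 1 and -1.13 without radiotherapy replicate 3. The log2 ratio of Sln to Atp2a1 was -12.04, -9.90 and -9.25 in the radiotherapy libraries and -10.14, -8.87 and -9.88 in control, with an exact permutation p of 0.5 (0.625 adjusted) for the difference of -0.77. The ratio of the fast to the slow pump, Atp2a1 to Atp2a2, was 1224, 508 and 940 in the radiotherapy libraries and 407, 3216 and 227 in control, where replicate 2 was the highest of all. Its log2 averaged 9.71 ± 0.65 in the radiotherapy and 9.38 ± 2.01 in the control libraries (SD, n = 3 each), and the exact permutation p was 0.9.

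Pvalb, parvalbumin, the cytosolic buffer of the fastest fibres, was at 12653, 14462 and 2591 TPM in the radiotherapy samples and 3232, 3451 and 4522 TPM in control. Replicates 1 and 2 were 2.80-fold and 3.20-fold above the highest control, and replicate 3 was the lowest of the 6 libraries. The log2 change was 1.08 (SE 0.63), or 1.44 relative to the median of all features, with an adjusted p of 0.432 by limma. Without radiotherapy replicate 3 the log2 change was 1.87 (SE 0.21, adjusted p = 0.0113), 0.73 without radiotherapy replicate 1 and 0.63 without radiotherapy replicate 2. Per 1000 TPM of fast fibre markers it was at 73.0, 80.1 and 28.3 TPM in the radiotherapy samples and 28.7, 27.2 and 40.6 TPM in control, so that on that scale replicate 3 lay inside the control range.

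**Figure D4:**
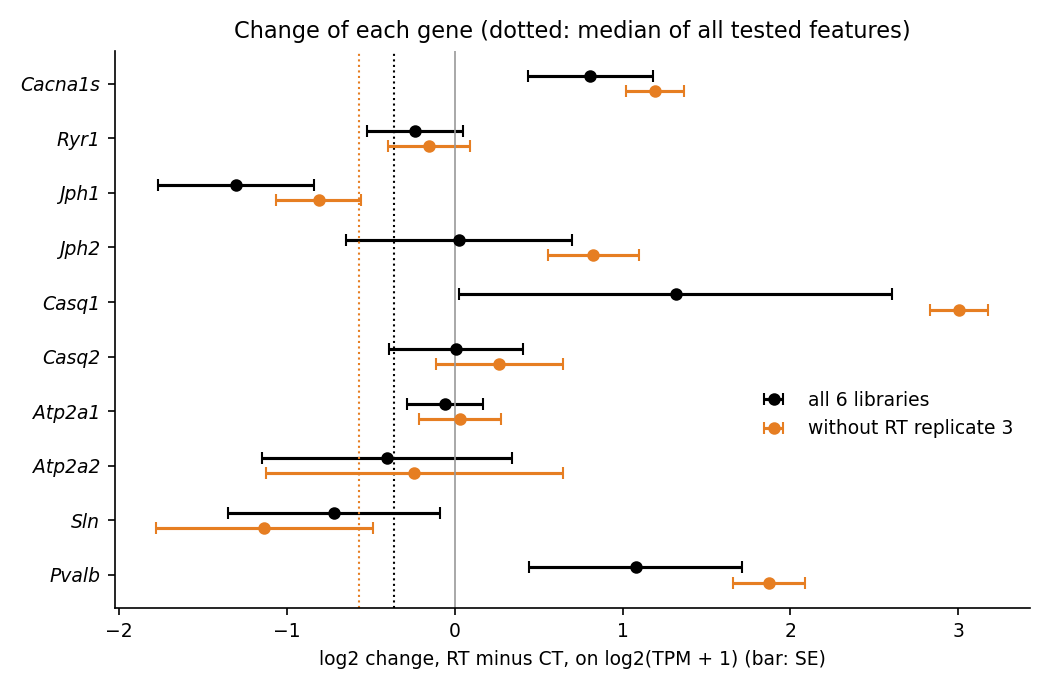
Log2 change of each gene, radiotherapy (RT) minus control (CT), on the log2(TPM + 1) scale with its SE, from all 6 libraries (black) and without radiotherapy replicate 3 (orange), with dotted lines at the median change of all tested features, -0.36 and -0.57. Casq1 is at 3.01 without that replicate and 1.32 with all 6 libraries, and Atp2a1 and Ryr1 stay near 0.

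By level, Pvalb at 9902 ± 6396 TPM and Atp2a1 at 9646 ± 1506 TPM led in the radiotherapy libraries, where they overlapped, while in control Atp2a1 at 10124 ± 2186 TPM stood above Pvalb at 3735 ± 691 TPM without overlap (SD, n = 3 each). Casq1 and Cacna1s came next in both groups, at 1169 ± 971 and 407 ± 160 TPM in the radiotherapy samples and 215 ± 22.1 and 218 ± 22.1 TPM in control, and overlapped each other in both. Ryr1 lay under Cacna1s without overlap in the radiotherapy libraries, and overlapped both Cacna1s and Casq1 in control. From Jph2 through Jph1, Atp2a2 and Sln, neighbours overlapped in both groups. Casq2 was last in both, apart from Sln in control and overlapping it in the radiotherapy libraries. Together the 10 genes made 2.66%, 2.60% and 1.15% of all TPM in the radiotherapy samples and 1.39%, 1.65% and 1.33% in control, a sum that Pvalb and Atp2a1 dominate.

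The other calcium-handling genes were taken from 8 lists with 85 entries, of which 83 were found in the table and 67 tested. By limma 0 of 67 passed over all features in either direction, beside 0.0419% and 0.0168% of all, and at an unadjusted p under 0.05 there were 0 higher and 8 lower, beside 1.18% and 13.3%. In every radiotherapy library 1 of 67 lay above every control library (1.49%, beside 1.73% of all features) and 15 lay below (22.4%, beside 19.3%), shares near those of all features. Their median log2 change was -0.28. Without radiotherapy replicate 3, 4 passed as higher (Calm3, Trdn, Sypl2 and Stac3, 5.97%, beside 1.98%) and 12 as lower (17.9%, beside 27.6%).

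Among 9 genes of the voltage sensor complex and triad assembly, 1 was above and 1 below in all 3 radiotherapy libraries. Over all features 1.73% lay above and 19.3% below. Cacng1, the gamma subunit of the muscle calcium channel, was at 284.5, 247 and 400 TPM in the radiotherapy samples and 615, 1085 and 476 TPM in control. These did not overlap, in a direction opposite to that of Cacna1s, and the log2 change was -1.16 (SE 0.37, adjusted p = 0.306 by limma). Cav3, the caveolin of the muscle membrane, was at 56.1, 46.6 and 44.7 TPM in the radiotherapy samples and 41.4, 36.2 and 33.1 TPM in control, a log2 change of 0.40. Mtm1, myotubularin, was at 0.99 to 2.29 TPM in the radiotherapy and 1.98 to 3.30 TPM in the control libraries. Stac3, an adaptor that the voltage sensor needs in muscle, named after its values were seen, followed Casq1, at 129, 98.8 and 24.1 TPM in the radiotherapy samples and 71.0, 52.3 and 55.5 TPM in control.

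Of 11 proteins of the reticulum's junction and lumen, 0 were above and 2 below in all 3 radiotherapy libraries. Those below made 18.2%, beside 19.3% of all features. Under median-of-ratios scaling 0 lay below, beside 9.95% of all features. Trdn, triadin, which links calsequestrin to RyR1, was at 1201, 1334 and 457 TPM in the radiotherapy samples and 380, 415 and 556 TPM in control. Replicates 1 and 2 were higher than all controls and replicate 3 was not, and the log2 change was 1.02 (SE 0.44, adjusted p = 0.352 by limma) and 1.51 without replicate 3 (adjusted p = 0.0133). Asph, whose locus encodes junctin, another calsequestrin partner, was at 112, 115 and 45.5 TPM in the radiotherapy samples and 176, 153 and 147 TPM in control, so the radiotherapy values were all lower. Canx, calnexin, a chaperone of the reticulum, was at 8.96, 9.08 and 57.3 TPM in the radiotherapy samples and 55.2, 42.5 and 37.2 TPM in control, low in replicates 1 and 2 only. Named after their values were seen, Sypl2, the triad protein mitsugumin 29, was at 60.1, 59.7 and 4.65 TPM in the radiotherapy samples and 18.7, 10.7 and 14.3 TPM in control. Tmem38b, a potassium channel of the reticulum, ran the other way at 13.5, 11.3 and 107 TPM in the radiotherapy samples and 88.3, 83.85 and 51.5 TPM in control.

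Of 9 release channels and regulators tested, 0 were above and 2 below (22.2%, beside 19.3% of all features). Calm3, a calmodulin gene, was at 172, 155 and 74.9 TPM in the radiotherapy samples and 109, 76.0 and 84.6 TPM in control. Its coding sequence closely resembles that of other genes, so its share of the reads is uncertain. Pde4d, a phosphodiesterase found with RyR1, was at 21.0, 26.5 and 8.79 TPM in the radiotherapy samples and 56.4, 44.7 and 68.6 TPM in control. S100a1, a calcium-binding activator of RyR1, was at 328, 309 and 248 TPM in the radiotherapy samples and 283, 295 and 309 TPM in control, overlapping.

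Among 5 SERCA genes and regulators tested, 0 were above and 2 below, Tmx1 and Atp2a3 (40%, beside 19.3% of all features). Under median-of-ratios scaling 0 of the 5 lay below, beside 9.95% of all features. The log2 change of Atp2a3, -0.37, was near the median of all features, -0.36. Mrln, myoregulin, the SERCA inhibitor of fast muscle, was at 163, 230 and 152 TPM in the radiotherapy samples and 196, 270 and 157 TPM in control, with a log2 change of -0.18 (SE 0.32). Tmx1, a thioredoxin-like protein of the reticulum, was at 3.19, 2.62 and 7.07 TPM in the radiotherapy samples and 7.70, 8.26 and 7.98 TPM in control. Pln, phospholamban, was at 0.57 to 1.92 TPM in the radiotherapy samples and 1.91 to 3.08 TPM in control, and Atp2a3, SERCA3, at 1.32 to 2.27 TPM in the radiotherapy samples and 2.29 to 2.62 TPM in control. Strit1, the SERCA activator DWORF of slow fibres, named after its values were seen, was at 39.4, 80.9 and 7.46 TPM in the radiotherapy samples and 64.1, 3.46 and 95.7 TPM in control, lowest in the libraries lowest in Myh7.

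Of 9 genes of calcium entry and extrusion tested, 0 were above and 3 below (33.3%, beside 19.3% of all features). Under median-of-ratios scaling 1 lay below, beside 9.95% of all features. Slc8a1, a sodium-calcium exchanger, was at 2.89, 5.31 and 4.04 TPM in the radiotherapy samples and 18.95, 10.1 and 8.15 TPM in control, without overlap, a log2 change of -1.34 (SE 0.37, adjusted p = 0.277 by limma). Atp2b1, a plasma membrane calcium pump, was at 4.85, 3.16 and 4.69 TPM in the radiotherapy samples and 8.90, 5.96 and 9.23 TPM in control, and Orai3, a store-operated channel subunit, at 3.93 to 5.41 TPM in the radiotherapy samples and 6.10 to 8.66 TPM in control. Stim1, the calcium sensor of the reticulum, overlapped, at 29.6, 22.95 and 10.2 TPM in the radiotherapy samples and 29.7, 19.7 and 23.7 TPM in control.

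Of 9 mitochondrial uptake genes tested, 0 were above and 1 below (11.1%, beside 19.3% of all features). That was Vdac1, the outer membrane channel, at 256, 273 and 228 TPM in the radiotherapy samples and 375, 307 and 440 TPM in control. Its log2 change was -0.55 (SE 0.26, adjusted p = 0.367 by limma), or -0.20 relative to the median of all features. Under median-of-ratios scaling 0 of this list lay below, beside 9.95% of all features. Mcur1, a regulator of the uniporter, was at 6.98, 4.91 and 13.3 TPM in the radiotherapy samples and 13.6, 13.5 and 11.0 TPM in control, and Micu3 at 3.25 to 6.26 TPM in the radiotherapy samples and 5.87 to 6.77 TPM in control.

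Of 15 calcium-dependent signalling genes tested, 0 were above and 4 below (26.7%, beside 19.3% of all features). The 4 were Ppp3ca, Ppp3cb, Ppp3r1 and Nfatc3, of which Ppp3ca was named after its values were seen. The first 3 encode catalytic and regulatory subunits of calcineurin, and Nfatc3 a transcription factor that calcineurin activates. Ppp3ca was at 44.5, 40.9 and 34.45 TPM in the radiotherapy samples and 54.5, 50.7 and 48.8 TPM in control. Its log2 change, -0.36, matched the median of all features. The other NFAT genes of the list, also named after their values were seen, overlapped. Their log2 changes were -0.23 for Nfatc1, -0.50 for Nfatc2 and 0.21 for Nfatc4. Ppp3r1 was at 28.3, 27.1 and 32.8 TPM in the radiotherapy samples and 75.2, 55.3 and 62.0 TPM in control, a log2 change of -1.09 (SE 0.26, adjusted p = 0.258 by limma). Ppp3cb was at 38.4, 36.4 and 34.4 TPM in the radiotherapy samples and 71.8, 43.7 and 64.0 TPM in control, and Nfatc3 at 1.82 to 3.06 TPM in the radiotherapy samples and 4.08 to 6.11 TPM in control. The log2 changes of Ppp3r1 and Nfatc3 stayed below 0 with every scaling tried, as did those of Pde4d, Cacng1 and Slc8a1. So did those of other genes of the lists, among them Asph, Canx and Vdac1. The first 5 did not overlap with median-of-ratios scaling either. Under that scaling 6 of 67 pathway genes, 2 of them from this list, lay below every control library, beside 9.95% of all features. Ppp3ca and Ppp3cb overlapped there. Rcan1, a calcineurin inhibitor that calcineurin itself induces, was at 11.7, 9.48 and 389 TPM in the radiotherapy samples and 35.1, 17.9 and 35.4 TPM in control. Replicates 1 and 2 were below all controls and replicate 3 far above, with a log2 change of 0.36 (SE 1.32) and, without replicate 3, of -1.34 (adjusted p = 0.0368 by limma).

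The remaining junctophilins and cytosolic buffers, Jph3, Jph4, Calb1, Calb2 and Ocm, were under 1 TPM on average, so 0 of 5 were tested. Calb2 and Ocm were listed at 0 in every library, and Jph4 reached 0.24 TPM in radiotherapy replicate 1. Among the junctophilin genes, Jph1 and Jph2 were thus the ones above 1 TPM on average in this muscle.

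**Figure D5:**
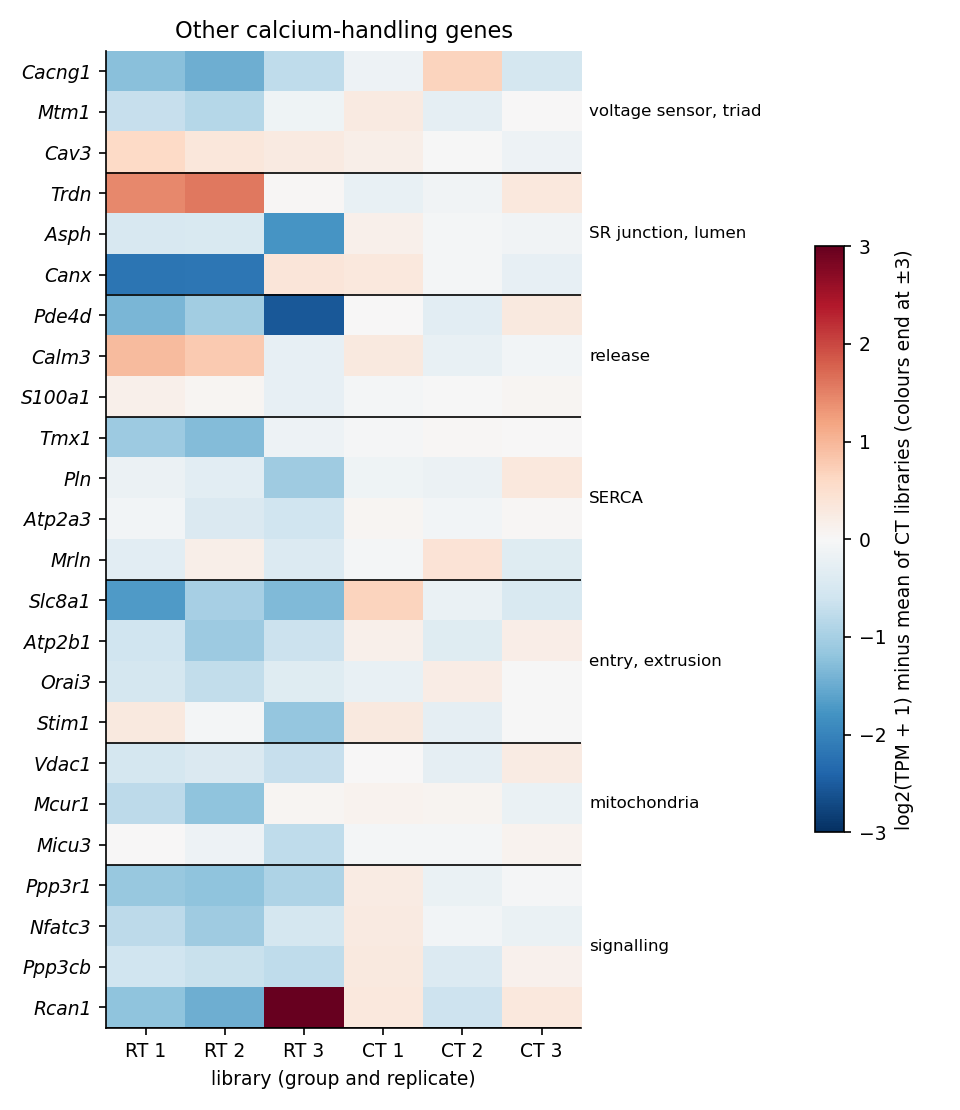
Level of 24 other calcium-handling genes (rows, grouped by role) in each radiotherapy (RT) and control (CT) library (columns), as log2(TPM + 1) minus the mean of the control libraries, with colours ending at ±3. Pde4d and Ppp3r1 are blue in all 3 radiotherapy columns. Trdn, at 1201 and 1334 TPM, is a medium red in radiotherapy replicates 1 and 2. Rcan1, at 389 TPM, is past the red end of the colours in radiotherapy replicate 3.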

How the data were processed

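The study sequenced RNA of 3 radiotherapy and 3 control gastrocnemius samples, grouped by the labels' treatment field, after TruSeq preparation of total RNA. The authors deposited gene levels as TPM, already scaled for length and depth. HISAT2, StringTie, RSEM and the build mm9 are named, with no version or role, per the submitters' processing notes, and no source used here names the annotation. Of 55995 features, 29604 were at 0 in every library. Those averaging 1 TPM or more, 11938, were analysed as log2(TPM + 1) with limma 3.58.1 in R 4.3.3, by empirical Bayes with a trend, two-sided and without covariates. Benjamini-Hochberg adjustment ran over all of them, with a threshold of 0.05. A fold on this scale understates the change of low genes, and each log2 change is radiotherapy minus control. Ratios of 2 genes were tested by exact permutation over libraries. The limma script was tested on simulated data with known changes. It recovered 1.46% of changes of log2 size 1, 42.5% of size 2 and 72.5% of size 3. Of the calls 6.33% were false. A gene that did not pass is therefore not shown to be unchanged. The genes and lists were chosen with earlier results of these data known. Of each list the text names the 3 tested genes with the smallest p and the most abundant one, and marks others as chosen after their values were seen; 1 gene is counted but not reported here. Libraries were checked for identical values, and 0 pairs were identical. Exon overlaps came from GENCODE M21 and promoters from RefSeq. The alternatives were a pseudocount of 0.1, a minimum average of 5 TPM or none, median-of-ratios scaling, rescaling with mitochondrial and the 20 most abundant features left out, the replicate number as a block, leaving out each library and, chosen after seeing the data, scaling to fast fibre markers. Figures were drawn with matplotlib 3.10.9.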

Additional observations from a re-analysis of the deposited data

How the results depend on the processing

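Depth is unknown and 3 libraries per group bound every statement. Casq2, under 5 TPM on average, was not tested with that minimum. Of the 10 members 0 passed the threshold, and 3 did so without radiotherapy replicate 3 and 0 without any other library (0 to 3 over the leave-outs). Of the 67 pathway genes 0 passed, and 0 to 16 over the leave-outs, the 16 being without radiotherapy replicate 3. Members without overlap, 1, were 0 with median-of-ratios scaling and 0 after rescaling without mitochondrial and abundant features, 2 when scaled to fast fibre markers, and 1 to 5 over the leave-outs. Pathway genes without overlap, 16, were 9 and 9 under those first 2 scalings and 16 to 36 over the leave-outs. The counts of 5 and 36 came without radiotherapy replicate 3. There 736 of 11938 features lay above and 7020 below every control library. With all 6 libraries 206 features lay above and 2299 below. These were 828 and 1188 with median-of-ratios scaling, 397 and 1965 after rescaling, and 93 and 1517 when scaled to fast fibre markers. The cause was not tested.

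The median log2 change of all features, -0.36, was -0.02 with median-of-ratios scaling, -0.20 after rescaling and -0.58 when scaled to fast fibre markers. Signs turned with median-of-ratios scaling for Atp2a1 (0.37), Atp2a2 (0.0031), Ryr1 (0.19), S100a1 (0.42), Mrln (0.25), Stim1 (0.11) and Micu3 (0.083). After rescaling they turned for Atp2a1 (0.15), S100a1 (0.19) and Mrln (0.029), and when scaled to fast fibre markers for Casq2 (-0.23) and Jph2 (-0.26). Between leave-outs the changes ran from -0.31 to 0.27 for Casq2, -0.48 to 0.83 for Jph2, -0.21 to 0.10 for Atp2a1, -1.28 to 0.17 for Atp2a2, -1.34 to 1.27 for Rcan1, -0.094 to 0.11 for S100a1, -0.36 to 0.030 for Mrln and -0.61 to 0.11 for Stim1. Without single libraries the difference of the log2 ratio of Atp2a1 to Atp2a2, 0.33, ran from -0.45 to 1.46, and that of Sln to Atp2a1, -0.77, from -1.34 to 0.052.

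Same-numbered libraries did not deviate together (correlations of deviations -0.05, -0.11 and -0.20 for numbers 1, 2 and 3), so the numbers were not taken as pairs, and no library correlated best with its own number. With the replicate number as a block, 0 members and 0 pathway genes passed, and over all features 4 passed as higher and 0 as lower, beside 5 and 2 without it.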
